A study of Bos taurus with 8 samples.

Results

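Genes that copy DNA and rebuild chromatin behind the replication fork were followed in peripheral blood granulocytes of 4 cows, each sampled before and after embryo transfer. The set was a given list of 8 S phase genes: CHAF1A, PCNA, MCM2, MCM3, MCM5, MCM6, RRM2 and TYMS. A probe carried the symbol of 6 of them, 1 probe per gene, out of 6769 named genes on the array. PCNA and MCM2 had no probe that the naming rule assigned to them and were not analysed here as members. All 6 probes entered the test. MCM3 did so through its 4 day 21 arrays and 1 day 7 array, so that counts over the 6 genes are descriptions of the probes that passed and not of the whole list.

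The first group held 4 samples taken on day 7 of the oestrous cycle, when the cows were not pregnant and no embryo had been transferred. The second held 4 samples taken on day 21 from the same animals, by then pregnant after embryo transfer, as the source names show. RNA from each sample was hybridised to its own single-colour oligonucleotide array. No strain, age or treatment other than the transfer is stated for the animals, and there was no group of cows that stayed non-pregnant on day 21, so day, pregnancy, transfer and the order of sampling cannot be told apart.

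The 6 proteins act at successive points of S phase. MCM3, MCM5 and MCM6 are subunits of the MCM complex, a ring of related proteins loaded on replication origins in G1 and switched on as the helicase that unwinds DNA at the fork. RRM2 is the small subunit of ribonucleotide reductase, which makes deoxyribonucleotides, and TYMS is thymidylate synthase, which makes the thymidine nucleotide. CHAF1A is the large subunit of chromatin assembly factor 1, the chaperone that places new histones H3 and H4 on DNA just after the fork has passed. Their genes are classical targets of E2F transcription factors and are transcribed mainly in cycling cells. Mature blood neutrophils, the main granulocyte, have left the cell cycle; their precursors divide in the bone marrow.

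Each probe was 60 bases long. The first 30 bases, or for CHAF1A and MCM5 the 30 bases around a match to AATAAA, are shown because they identify what was measured. AATAAA is the usual polyadenylation signal of mammalian transcripts, and its letters are in capitals.
CHAF1A: aatctgccctttAATAAAgcattattgtga
MCM3: atcttgctactgccattggtttaggacagt
MCM5: atttatagaagtAATAAAgacatggtgtgt
MCM6: agtagttaccctaactatttgcttgaagat
RRM2: ttttgtctaaaacgtctcaaaatacggata
TYMS: ctaaatctgagcaagctgggtaacacccat

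AATAAA was found in 11.3% of the 15208 probes of the array, and its reverse complement TTTATT, found in no probe of the 6 genes, in 4.14%. A match describes the letters of the probe and does not show where a transcript ends. GC content was 45% for the CHAF1A, MCM3 and TYMS probes and 35% for the MCM5, MCM6 and RRM2 probes, against a median of 43.3% over the array. The probes of CHAF1A, MCM3, MCM5, MCM6 and RRM2 shared no run of 16 bases with another probe. The TYMS probe had a second spot: a probe without a gene symbol carries the same 60 bases. The place of the probes in the bovine genome was not determined here.

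Values are normalised log2 signals, that is log2 of the processed spot intensity minus the 75th percentile of the array, so that 0 is the level of a rather bright probe and each unit is a doubling. Levels of the replication genes are compared within a probe and not between probes. Only the sums over cell type markers, given below, add the levels of several probes. Between 56.8% and 74.9% of probes were well above background on an array, and over the 10459 tested probes the standard error of the day 21 minus day 7 difference had a median of 0.456. The 3 arrays of slide 1 held both samples of cow 1 and the day 7 sample of cow 2. The day 21 sample of cow 2 was on slide 2, cow 3 was on slide 3 and cow 4 on slide 4, so that cow and slide largely coincide. With limma, no probe of the array passed an adjusted p of 0.05 (0 of 10459), while 983 probes (9.40%) had an unadjusted p under 0.05, with 522 (4.99%) higher and 461 (4.41%) lower on day 21.

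CHAF1A had the largest difference of the 6 genes. Its signal on day 7 was -1.80, -1.34, -2.07 and -1.40 in cows 1 to 4. On day 21 it was -0.28, 2.02, 0.27 and 0.58 in the same cows. Every day 21 value lay above every day 7 value, with cow 2 highest and cow 1 lowest on day 21. Such a separation upwards was seen for 3.09% of the probes measured in all 8 samples, and a separation downwards for 2.58%. The group means were -1.65 ± 0.35 and 0.65 ± 0.98 (SD, n = 4), a log2 change of 2.30 ± 0.49 (SE), or 4.93-fold. This change ranked 22 of 10459 from the highest, but it did not pass the test (limma, adjusted p = 0.310). In a bulk sample, more cells that carry a transcript and more transcript per cell cannot be told apart, here and for the genes that follow.

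Within cows the CHAF1A difference was 1.51, 3.36, 2.34 and 1.98 in cows 1 to 4. It was therefore above 1 log2 unit in each animal, including the 3 cows whose samples shared a slide. A difference above 0 in each of 4 cows was seen for 15.7% of the measured probes, and one below 0 for 14.1%. The adjusted p was 0.124 with cow as a block and 0.0693 with slide as a random block, and neither passed. Without the day 21 sample of cow 2, which was the highest, the change was 1.84, and without the 3 arrays of slide 1 it was 2.70.

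**Figure D1:**
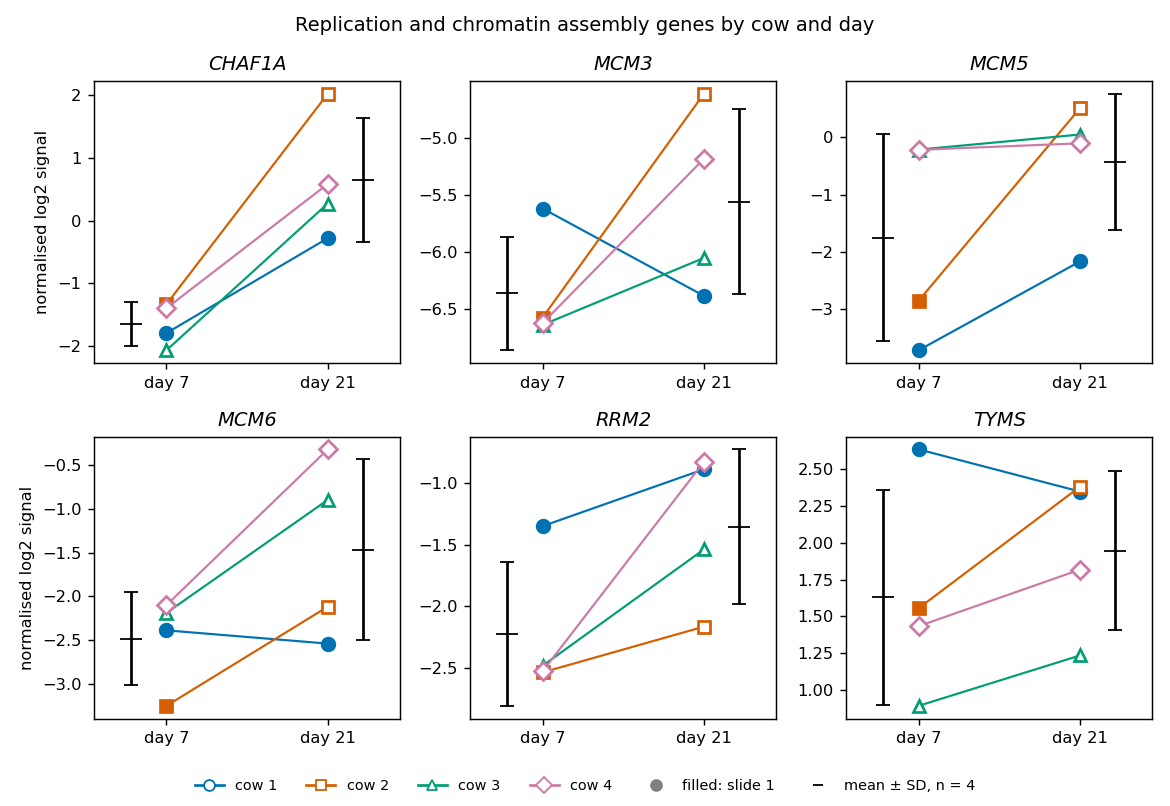
Normalised log2 signal (vertical axis, separate scale per gene) of CHAF1A, MCM3, MCM5, MCM6, RRM2 and TYMS on day 7 and day 21, with 1 line per cow, filled symbols for the 3 arrays of slide 1, and the group mean ± SD (n = 4) beside each day. Only CHAF1A shows groups that do not overlap; MCM5 is split by slide, with the slide 1 arrays between -3.73 and -2.17 and the other 5 between -0.22 and 0.51.

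The 3 MCM subunits had higher means on day 21, by 0.80 to 1.33 log2 units, and their groups overlapped. MCM6 stood at -2.39, -3.25, -2.19 and -2.10 on day 7 in cows 1 to 4. On day 21 it stood at -2.54, -2.12, -0.90 and -0.32. The higher values on day 21 came from cows 2, 3 and 4, with within-cow differences of 1.13, 1.29 and 1.78, while cow 1 differed by -0.15. The means were -2.48 ± 0.53 and -1.47 ± 1.04 (SD, n = 4). The log2 change of 1.01 ± 0.53 (SE), 2.02-fold, did not pass (limma, adjusted p = 0.598).

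MCM5, a subunit next to the gate through which the ring is opened for loading, gave -3.73, -2.86, -0.21 and -0.22 on day 7. Its day 21 values were -2.17, 0.51, 0.05 and -0.10. All 4 cows were higher on day 21, but by 1.55 and 3.37 in cows 1 and 2 and by only 0.26 and 0.11 in cows 3 and 4. The 3 arrays of slide 1 were the lowest 3 of the 8, between -3.73 and -2.17, and the other 5 lay between -0.22 and 0.51. The change over all arrays was 1.33 ± 0.87 (SE; limma, adjusted p = 0.663). It was 0.56 when slides were fitted as fixed blocks, and without the arrays of slide 1 it was 0.37 (adjusted p = 0.627). Within slides that held both days it was 1.12 on slide 1, 0.26 on slide 3 and 0.11 on slide 4. The slide 1 value sets day 21 of cow 1 against the day 7 mean of cows 1 and 2. The cow 2 difference spans slides 1 and 2, and without cow 2 the change was 0.64.

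MCM3 was dim. Its probe was well above background on 1 of 4 day 7 arrays and on 4 of 4 day 21 arrays, and 1 of the day 7 values is a surrogate that the scanner software put in place of a signal it could not tell from background. Its day 7 values were -5.62, -6.57, -6.64 and -6.62, and its day 21 values -6.38, -4.61, -6.05 and -5.18. Cows 2, 3 and 4 were higher on day 21, by 1.96, 0.59 and 1.44, and cow 1 was lower, by -0.76. The log2 change of 0.80 ± 0.47 (SE) did not pass (limma, adjusted p = 0.631). It depended on the background correction, with 0.21 after normexp correction and 0.17 after normexp with quantile normalisation. Without cow 2 it was 0.42, and without cow 1 it was 1.33.

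Other subunits of the complex were looked for as well. MCM7, which had a named probe, gave a log2 change of 0.24 ± 0.39 (limma, adjusted p = 0.876). A probe that the array only describes as similar to MCM4, and that the naming rule did not accept, gave -0.86, -1.17, -0.23 and -0.25 on day 7 and 0.24, 0.68, 0.18 and 0.49 on day 21. Its groups did not overlap, with a change of 1.03 ± 0.36 (limma, adjusted p = 0.475). A probe described as similar to MCM8, a related helicase outside the ring, gave -0.05 ± 0.48. PCNA is the sliding clamp that holds polymerases on DNA and recruits chromatin assembly factor 1. A probe described only as similar to it gave 1.53, 0.87, 1.35 and 1.60 on day 7 and 0.59, 2.76, 2.36 and 2.86 on day 21. It was higher in cows 2, 3 and 4 and lower in cow 1, as MCM3 and MCM6 were, and its change was 0.80 ± 0.51 (limma, adjusted p = 0.653). These described probes were found by their annotation but chosen after their values were seen, and they are not counted among the 6 genes.

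The nucleotide-supply enzymes differed in size. RRM2 gave -1.35, -2.54, -2.48 and -2.53 on day 7 in cows 1 to 4. On day 21 it gave -0.89, -2.16, -1.54 and -0.83. Each cow was higher on day 21, by 0.46, 0.37, 0.95 and 1.70, although cow 1 on day 7 already stood above cows 2 and 3 on day 21. The log2 change was 0.87 ± 0.44 (SE), 1.83-fold (limma, adjusted p = 0.587). RRM1, the large subunit of the same enzyme, gave 0.21 ± 0.64 (limma, adjusted p = 0.941), with within-cow differences from -1.71 in cow 2 to 1.76 in cow 1.

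TYMS showed the smallest difference. Its values were 2.63, 1.56, 0.89 and 1.43 on day 7 and 2.35, 2.38, 1.23 and 1.82 on day 21. The within-cow differences were -0.29, 0.83, 0.34 and 0.38, and in cows 1, 3 and 4 they were smaller in size than the spread between cows on day 7 (SD 0.73, n = 4). The log2 change of 0.32 ± 0.45 (SE), 1.24-fold, sat at percentile 65.8 of all tested probes (limma, adjusted p = 0.858). The second spot with the same 60 bases gave 0.31 ± 0.47, and on the 8 arrays the spots differed by -0.03 to 0.12 log2 units. Over 91 such pairs of probes with identical bases, spots that were both well above background differed by a median of 0.20 log2 units within an array (475 spot pairs), and 9 in 10 differed by under 0.61.

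**Figure D2:**
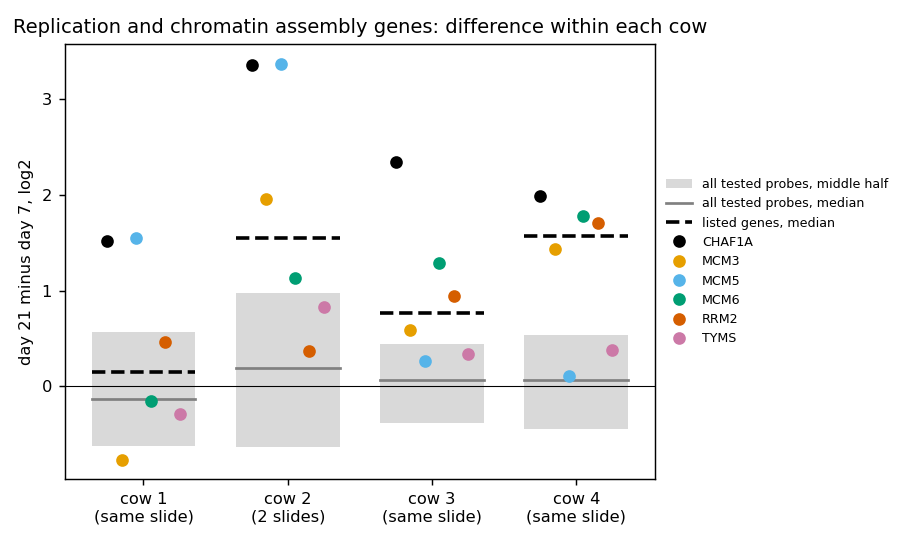
Day 21 minus day 7 (log2) within each cow for the 6 genes, with their median as a dashed line, over the middle part (lower to upper quartile, grey) and the median of all tested probes. The median of the 6 genes was 0.16 in cow 1, 1.55 in cow 2, 0.77 in cow 3 and 1.57 in cow 4, and the 3 differences below 0 are MCM3, MCM6 and TYMS in cow 1.

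Among the animals, cow 1 gave the smallest median difference, though not the smallest for each gene. For MCM5 it gave 1.55, above the 0.26 and 0.11 of cows 3 and 4. In cow 1, 3 of the 6 genes were higher on day 21 and the median difference was 0.16. In cows 2, 3 and 4, 6 of 6 were higher and the medians were 1.55, 0.77 and 1.57. The medians over all tested probes were -0.13, 0.20, 0.06 and 0.07 in cows 1 to 4, so the medians of the 6 genes were above those of the array in each cow. Of 24 differences, 21 were positive, from 6 genes in the same 4 cows and so not independent. Of the probes measured in all 8 samples, 44.3%, 56.7%, 54.5% and 53.9% were higher on day 21 in cows 1 to 4. Within slides that held both days, the median over the 6 genes was 0.67 on slide 1, 0.77 on slide 3 and 1.57 on slide 4. The slide 1 value sets day 21 of cow 1 against the day 7 mean of cows 1 and 2, and within cow 1 alone the median was 0.16. The values of slides 3 and 4 are those of cows 3 and 4 again.

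Over both groups, 6 of 6 genes had a higher mean on day 21, where 55.9% of all tested probes did. Their median log2 change was 0.94, or 1.92-fold, against 0.08 over all probes, and it was 0.87 without CHAF1A. None was called (limma, adjusted p from 0.310 to 0.858), and 1 of 6, CHAF1A, had an unadjusted p under 0.05 in the higher direction, against 4.99% of all probes. With cow as a block, which uses the pairing of the samples, 3 of 6 did, CHAF1A, MCM6 and RRM2, against 9.86% of all probes higher and 8.97% lower, and again none was called. CHAF1A, MCM5 and RRM2 were higher in 4 of 4 cows, against 15.7% of the probes measured in all 8 samples. Without cow 1, all 6 were higher in each of the 3 cows left, and the share of all probes higher in each of these 3 cows was not determined. The direction held under the other scalings tried, array median and quantile normalisation, for each of the 6 genes.

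Limma with array quality weights changed the calls. It gave the samples of cow 4 weights of 3.27 on day 7 and 7.02 on day 21, and those of cow 1 weights of 0.29 and 0.30. CHAF1A then passed at 2.16 ± 0.29 (limma with weights, adjusted p = 0.00337), as did RRM2 at 1.47 (adjusted p = 0.00874), MCM6 at 1.73 (adjusted p = 0.0133) and MCM3 at 1.27 (adjusted p = 0.0149). MCM5, at 0.64, and TYMS, at 0.40, did not (adjusted p = 0.437 and 0.336). For MCM3 the day 7 value of cow 4, -6.62, is a surrogate for a signal not told from background. That array had the weight of 3.27, so the MCM3 change in this fit leans on a value that was not measured. The same fit called 8.40% of all probes higher, and it rests largely on 1 cow, whose day 7 array also had the noisiest negative controls (SD 15.1 intensity units against 2.40 to 5.32 on the other arrays).

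**Figure D3:**
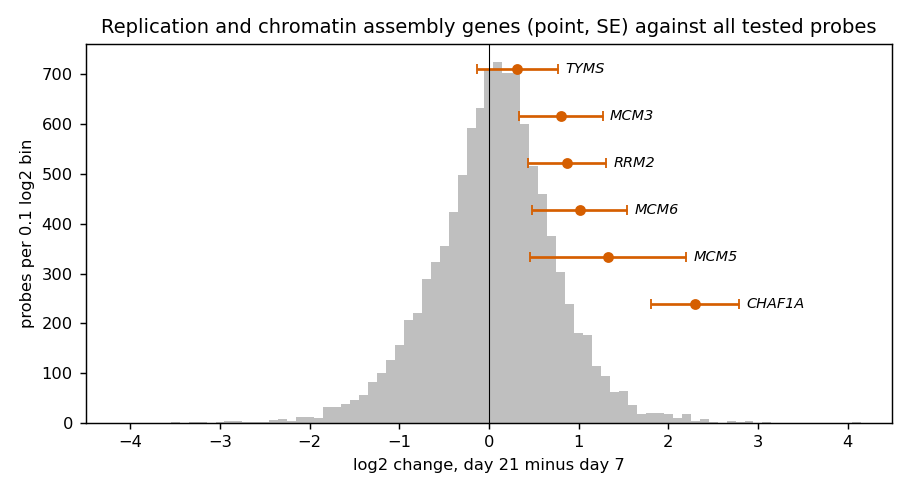
Histogram of the log2 change (day 21 minus day 7) of the 10459 tested probes in bins of 0.1, with the change ± SE of the 6 genes drawn as points at arbitrary heights. TYMS, at 0.32, lies in the bulk of the probes, MCM3, RRM2, MCM6 and MCM5 lie between 0.80 and 1.33, and CHAF1A lies in the upper tail at 2.30.

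Further genes of the replication programme were taken from 7 lists that do not contain the 6 genes. Of 206 listed genes, 96 were on the array and 90 were tested. A higher mean on day 21 was found for 66 (73.3%), against 55.9% of all tested probes. A lower one was found for 24, and none was called (limma). The median change was 0.39. At an unadjusted p under 0.05, 11 of the 90 genes were higher and 3 lower, against 4.99% and 4.41% of all probes. With cow as a block these counts were 21 and 7 of 90, against 9.86% and 8.97% of all probes.

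Origin licensing and firing genes, the partners of the MCM ring, were higher in 8 of 9 cases (median 0.61). ORC1, the largest subunit of the origin recognition complex, gave -2.91, -3.67, -5.09 and -4.30 on day 7 and -1.93, -1.18, -2.69 and -1.39 on day 21. Its groups did not overlap, and its change of 2.19 ± 0.53 (limma, adjusted p = 0.336) was close in size to that of CHAF1A. GINS3, part of the active helicase, gave 1.36 ± 0.49 (limma, adjusted p = 0.495) and was higher in 4 of 4 cows. CDT1, which loads the ring, and GMNN, its inhibitor geminin, gave 0.79 ± 0.44 and 0.96 ± 0.51. CDC7, the kinase that fires origins, was the exception at -1.03 ± 0.67. Its within-cow differences were -0.48, -2.44, -0.20 and -0.98, and the day 21 value behind that of cow 2, -7.69, is a surrogate for a signal not told from background.

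Among replication fork enzymes, 14 of 15 were higher (median 0.56). PCLAF, a small protein that binds PCNA, gave 1.26 ± 0.42 (limma, adjusted p = 0.465) and was well above background on 2 of 4 day 7 arrays. RPA3 and RPA2 are subunits of one complex that coats single-stranded DNA, and they differed in opposite directions. RPA3 gave 0.82 ± 0.34, higher in 4 of 4 cows, and RPA2 gave -0.79 ± 0.56, lower in 4 of 4 cows (limma, adjusted p = 0.514 and 0.680).

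The deoxynucleotide supply genes, the functional neighbours of RRM2 and TYMS, were split, with 6 of 10 higher and a median of 0.19, and without cow 1 with 5 of 10 higher and a median of -0.05. DCK, the kinase that salvages deoxycytidine, had the smallest p of the list and was lower: -1.23, 0.27, -1.47 and -0.40 on day 7 and -2.28, -1.82, -2.56 and -1.81 on day 21. Its groups did not overlap, at -1.41 ± 0.45 (limma, adjusted p = 0.434).

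Chromatin assembly and histone genes, the neighbours of CHAF1A, were also split, with 13 of 19 higher and a median of 0.24, or 12 of 19 and 0.58 without cow 1. ANP32E, a chaperone of the histone variant H2A.Z, gave 1.31 ± 0.42 with groups that did not overlap (limma, adjusted p = 0.439). RBBP7, a histone-binding protein, gave 0.70 ± 0.39. ASF1A, the chaperone that hands H3 and H4 to chromatin assembly factor 1, gave -0.89 ± 0.43 and was lower in 4 of 4 cows, while CHAF1A was higher in the same cows. UHRF1, which recognises half-methylated DNA behind the fork, gave -0.73 ± 0.37 and was also lower in 4 of 4 cows.

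The E2F and G1/S control list had 8 of 15 higher and a median of 0.15. MYBL2, itself an E2F target, gave 1.32 ± 0.40 and CDK2, the S phase kinase, 0.64 ± 0.31, each without overlap of the groups (limma, adjusted p = 0.419 and 0.567). CDKN2B, which inhibits the kinases of G1, gave -3.26 ± 0.52 with an adjusted p of 0.219, the smallest value on the array (limma). LIN37, a subunit of the complex that represses cell cycle genes in resting cells, gave -1.55 ± 0.63. The S phase checkpoint list had 6 of 9 higher and a median of 0.17.

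**Figure D4:**
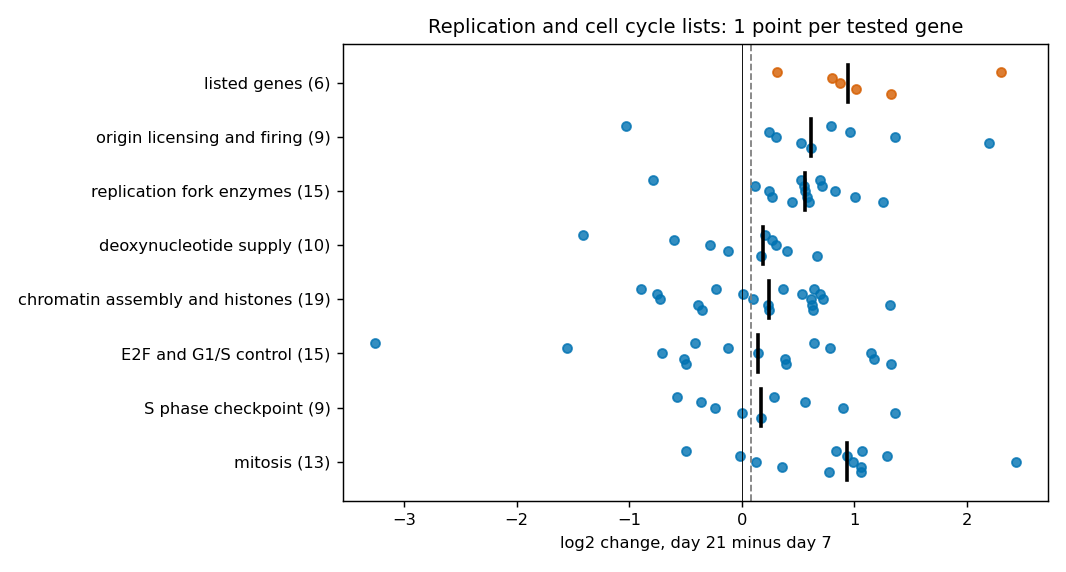
Log2 change (day 21 minus day 7) of each tested gene of the 6 listed genes (orange) and of 7 further lists (blue), with list medians as black bars and the median of all probes, 0.08, as a dashed line; vertical scatter within a list has no meaning. The medians are highest for the listed genes (0.94), mitosis (0.93), origin licensing and firing (0.61) and replication fork enzymes (0.56), and lowest for E2F and G1/S control (0.15).

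Markers of the cell types that a granulocyte preparation can hold were read on the same arrays. Of 16 mature neutrophil markers, 14 were lower on day 21 (median -0.30), and 15 of the 17 on the array were well above background on all 8 arrays. Without cow 1, 10 were lower and 6 higher (median -0.19). Cow 1 stood apart on several granulocyte genes: CXCR1, a chemokine receptor, differed by -8.44 in cow 1 and by 1.43, 1.42 and 1.53 in cows 2 to 4, and MMP9, a granule protease, by -3.72 against 1.88, 0.30 and 0.01. The antimicrobial peptide genes CATHL1 and CATHL4 differed by -5.56 and -5.21 in that cow. Both day 21 values behind these differences, -8.70, are surrogates for a signal not told from background, so the sizes were not measured. The summed normalised signal of the 16 neutrophil markers measured on every array, in units of the 75th percentile of the array, was 220.7 to 260.3 on day 7 and 173.4 to 222.6 on day 21. S100A12 is left out of that sum, since its spot on the day 21 array of cow 2 was an outlier. Such sums, here and below, weigh the brightest probes most. Of 8 monocyte markers, 7 were higher (median 0.69), with sums of 55.1 to 96.4 and 70.8 to 121.1. The brightest of them, FCN1, makes up most of these sums and gave 0.24 ± 0.36 (limma, adjusted p = 0.864). CD14 gave 1.60 ± 0.45 with groups that did not overlap (limma, adjusted p = 0.392). Of 11 granulocyte precursor markers, 5 were higher and 6 lower (median -0.56), with sums of 2.32 to 3.36 and 2.50 to 3.28. CD34, a marker of stem and progenitor cells, was well above background on 1 of 4 day 7 arrays and 3 of 4 day 21 arrays, and 2 of its day 7 values are surrogates.

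Lymphocyte lists pointed in different directions, with 6 of 9 T cell markers lower (median -0.45), 5 of 6 B and plasma cell markers higher (median 0.37) and 7 of 8 NK cell markers higher (median 0.29), or 4 of 8 without cow 1 (median 0.03). Without cow 1, 4 of 6 B and plasma cell markers were higher (median 0.19). Their summed signals overlapped between days, at 18.3 to 29.6 and 16.8 to 25.01 for T cells (8 markers, without CD3E, an outlier spot on the day 21 array of cow 2), 25.1 to 35.2 and 22.2 to 37.6 for B and plasma cells, and 2.37 to 9.83 and 3.00 to 13.4 for NK cells. Of 4 erythroid markers 2 were higher, with HBB and SLC4A1 never well above background (sums 2.63 to 6.04 and 2.73 to 6.67). Of 3 platelet markers 2 were higher (sums 1.60 to 4.90 and 1.72 to 6.15), ITGA2B at 0.10 ± 0.52 and ITGB3 at 0.72 ± 0.55. The other, P2RY12, gave -2.45 ± 0.45 and was lower in 4 of 4 cows (limma, adjusted p = 0.279). Its groups did not overlap, as for 2.58% of probes in that direction. Of 3 eosinophil and basophil markers 1 was higher (sums 0.13 to 1.81 and 0.23 to 1.16). None of these genes was called (limma), and the part that cell makeup had in the values of the replication genes was not tested.

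Profiles over the 8 arrays, each centred on its own mean, were compared by their root mean square difference over 4922 genes. The genes nearest to CHAF1A were PAK1IP1 (0.51 log2 units), FBXW2 (0.52), UGCG (0.53), MLXIPL (0.54) and MAFF (0.56), against a median of 1.40 over all genes. Nearest to CHAF1A among the other 5 replication genes was MCM3, at 0.88 and place 227, and MCM5 was farthest at 1.35. The mean profile of MCM3, MCM5 and MCM6 was nearest to MRPL1 (0.22), RBM39 (0.22), SOD1 (0.23), TRIB3 (0.24) and RIPK2 (0.27), with a median over genes of 1.02. None of these 10 genes is in the replication lists. Taken singly, MCM6 was nearest to GINS3 (0.33), MCM3 to TXNL1 (0.15) and MCM5 to DNAJB4 (0.30). RRM2 was nearest to MND1 (0.19) and TYMS to TMEM175 (0.10). Of these nearest genes, only GINS3 is in the replication lists.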

How the data were processed

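In the deposited scanner files the unit is the intensity of each spot, background-subtracted and spatially detrended by Agilent Feature Extraction, per the file headers; the version is 9.5, per the submitters' processing notes. The deposited series table holds log2 values that equal the scanner values minus 1 constant per array, within 0.00485, with column medians from -3.53 to -3.29; why the constants differ from the 75th percentile, by up to 0.0162, is unknown. It served as an alternative.

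Control spots (536 of 15744) and spots flagged as outliers were left out, log2 signals were scaled to the 75th percentile of each array, and probes well above background on at least 4 of 8 arrays were tested. Symbols came from accessions, gene identifiers, gene names or descriptions, through a RefSeq table of ARS-UCD2.0 used for names only; 7104 of 15208 probes received one. Groups were compared with limma 3.58.1 (lmFit, eBayes) in R 4.3.3, without a block, with Benjamini-Hochberg adjustment over 10459 probes. The fit was tested on simulated data. Each group has 4 animals, and the number of arrays limits the precision.

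The source names give the same animal for equal replicate numbers. Deviations from the group means correlated at 0.476, 0.172, 0.752 and 0.436 within cows 1 to 4 and at -0.474 to 0.302 between cows, with slide and cow largely coinciding.

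Named besides the members were, per list, the 2 higher and 2 lower genes of smallest p, the smallest p of each marker list, and the 5 nearest profiles; not every such gene is given. RRM1, MCM7, CDT1, GMNN and the probes described as similar to PCNA, MCM4 and MCM8 were chosen after their values were seen. Genes with several probes were represented by 1 probe. The members and lists were chosen with earlier results of these data known. Alternatives covered pairing, slide, background correction, scaling, filters, array weights and left-out arrays or cows.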

Additional observations from a re-analysis of the deposited data

Results flagged for a closer look

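In 6 of 82 tested groups of 4 samples, 1 sample lay far from the others by Dixon's criterion, which flags about 1 group in 20 by chance. In each of the 6 it was cow 1, and the highest value. For the replication genes this held in 2 of 12 groups: MCM3 on day 7, where cow 1 was at -5.62 and the other cows between -6.64 and -6.57, and RRM2 on day 7, where cow 1 was at -1.35 and the others between -2.54 and -2.48. The other groups were SHMT2 on day 21 (1.87), ASF1A on day 21 (-0.55), LIN37 on day 21 (-1.44) and the B cell marker CD79A on day 7 (1.96). Both arrays of cow 1 were on slide 1, and the part of the slide was not tested.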

How the results depend on the processing

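Over 24 alternatives no gene of the 6 changed direction. The number with a higher mean on day 21 stayed at 6, except for 5 of 5 when a signal on all 8 arrays was required, where MCM3 was not tested. Their median change ran from 0.68 to 1.37. The count of higher genes in the 7 further lists was 51 of 72 when a signal on all 8 arrays was required. It was 67 of 96 without a filter on dim probes, and from 59 to 69 of 90 under the other alternatives. The number higher in every cow was 3, and 6 without cow 1, a range of 3 to 6 over left-out cows. With the cow as a replicate block, 0 probes were called, the median of the 6 genes was 0.94, and no call changed, while the probes at an unadjusted p under 0.05 went from 983 to 1969. Over all probes, slide as a random block called 12, array quality weights 1700, and left-out arrays or cows 0 to 41, the highest without the day 21 array of cow 1 and 36 without cow 1; other alternatives called 0, and the cause was not tested. Leaving out the 3 arrays of slide 1, and the list counts without cow 1, were chosen after seeing the data. Other probes of the same gene could not be tried, since each of the 6 genes had 1 named probe.

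The limits are 4 cows, no non-pregnant day 21 samples, slides that follow the cows, and a dim MCM3 probe. Over the alternatives, the change ran from 1.81 to 2.70 for CHAF1A, 0.17 to 1.35 for MCM3, 0.37 to 1.91 for MCM5, 0.63 to 1.73 for MCM6, 0.59 to 1.47 for RRM2 and 0.07 to 0.65 for TYMS.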

Other observations

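Genes of mitosis, the phase that follows replication, were higher on day 21 in 11 of 13 cases, against 55.9% of all tested probes. Their median log2 change was 0.93. Of the 13, 8 were higher in 4 of 4 cows, against 15.7% of the probes measured in all 8 samples. CDK1, the main mitotic kinase, was at -7.66, -4.87, -3.67 and -3.99 on day 7 in cows 1 to 4 and at -4.21, -1.52, -2.47 and -2.24 on day 21, a change of 2.44 ± 0.86. The lowest of these values is a surrogate for a signal not told from background. CCNB1, its cyclin partner, was at -3.20, -3.16, -3.46 and -3.48 on day 7 and at -2.36, -2.14, -2.63 and -1.90 on day 21, with groups that did not overlap and a change of 1.07 ± 0.32. NUSAP1, a spindle protein, was at -0.49 ± 0.48. None was called (limma, adjusted p = 0.486, 0.419 and 0.777 for CDK1, CCNB1 and NUSAP1). The median of the mitosis list was 0.57 in cow 1 and 1.102, 0.56 and 1.00 in cows 2, 3 and 4. HUS1, part of the clamp that signals damaged DNA in S phase, was higher in 4 of 4 cows, at 0.90 ± 0.39 (limma, adjusted p = 0.514).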
